A study of Mus musculus with 8 samples.

Results

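Transcripts of the proteasome were examined in the livers of diet-induced obese (DIO) mice treated with IXA4, a compound that activates IRE1/XBP1s signaling, or with vehicle. The genes taken were all symbols of the count table made of Psma, Psmb, Psmc, Psmd or Psme and a number, which gave 43 of 26166 symbols. They comprise 8 alpha and 8 constitutive beta genes of the core, the 3 inducible beta genes Psmb8, Psmb9 and Psmb10, 6 ATPases of the base, 14 other regulatory particle genes and 4 activators. Both groups were male C57BL/6N mice, 14 weeks old when purchased, that had been held for 3 weeks on a diet with 60% of kcal from fat before dosing. The IXA4 group received 50 mg/kg and the vehicle group the DMSO, Kolliphor EL, ethanol and saline mixture alone, by daily intraperitoneal injection for 8 weeks. There were 4 livers in each group, described as biological replicates, and 1 library from each. The count columns taken as IXA4 are the 4 that are not headed as vehicle, since their heading is a number that the labels do not explain, so every IXA4 value rests on that assignment. Library totals ran from 16986915 to 18390185 counts.

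The proteasome degrades proteins that carry ubiquitin chains. Its barrel-shaped core has outer rings of alpha subunits, which gate the entry, and inner rings of beta subunits, of which Psmb5, Psmb6 and Psmb7 carry the chymotrypsin-like, caspase-like and trypsin-like active sites. A regulatory particle binds ubiquitin chains, removes them and unfolds the substrate with a ring of ATPases. Interferon induces Psmb8, Psmb9 and Psmb10, which replace Psmb5, Psmb6 and Psmb7 in the immunoproteasome, a form known for making peptides for MHC class I. In mammalian cells the transcription factor NRF1, encoded by Nfe2l1, raises the subunit genes together when the proteasome is inhibited. It reaches the nucleus only after leaving the ER membrane through machinery that is shared with ER-associated degradation, some of whose genes are XBP1s targets. The comparison of IXA4 with vehicle therefore asks whether the proteasome genes moved with the drug, and whether its constitutive and inducible forms moved alike.

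No proteasome subunit passed the test. Of the 41 subunits with enough counts to be tested, edgeR's quasi-likelihood test with Benjamini-Hochberg adjustment over all 12427 genes called 0 higher and 0 lower with IXA4, where it called 4.63% of all genes (3.64% higher and 0.99% lower). At an unadjusted p under 0.05 there were 2 subunits higher, Psmb8 and Psmc6, and 1 lower, Psmd9, against 19.2% of all genes (11.1% higher and 8.03% lower). DESeq2 called 0 subunits, against 6% of its genes (4.35% higher). The log2 fold changes of the 41 had a median of -0.02, beside -0.01 over all genes tested, and 16 were positive and 25 negative. They lay between -0.29 for Psmd9 and 0.49 for Psmb9. The number of all genes called moved with single libraries. It was 452 higher and 123 lower with every library, while 261 were higher and 43 lower without vehicle replicate 1, and 271 and 49 without vehicle replicate 2. Leaving out vehicle replicate 4 gave 52 genes lower, leaving out IXA4 replicate 1 gave 74 and leaving out IXA4 replicate 3 gave 72. In each of these settings 0 subunits were called.

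The precision was high for most subunits. The 95% interval of the fold change lay wholly within 1.5-fold of no change for 37 of the 38 tested subunits other than the inducible beta subunits and for 0 of those 3, compared with 52.9% of all genes tested. The exception was Psme2, at 1.82 ± 0.52 with IXA4 and 1.40 ± 0.49 with vehicle (SD, n = 4), in CPM, the count scaled to the TMM-normalized library size, whose interval reached 2.05-fold. Summed over all subunits but the inducible beta ones, the level was 2861 to 3171 CPM in IXA4 libraries and 2980 to 3308 CPM in vehicle libraries, and the ranges overlapped. The sum of the 3 inducible subunits was 66.8 to 135 CPM with IXA4 and 77.0 to 82.7 CPM with vehicle.

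**Figure D1:**
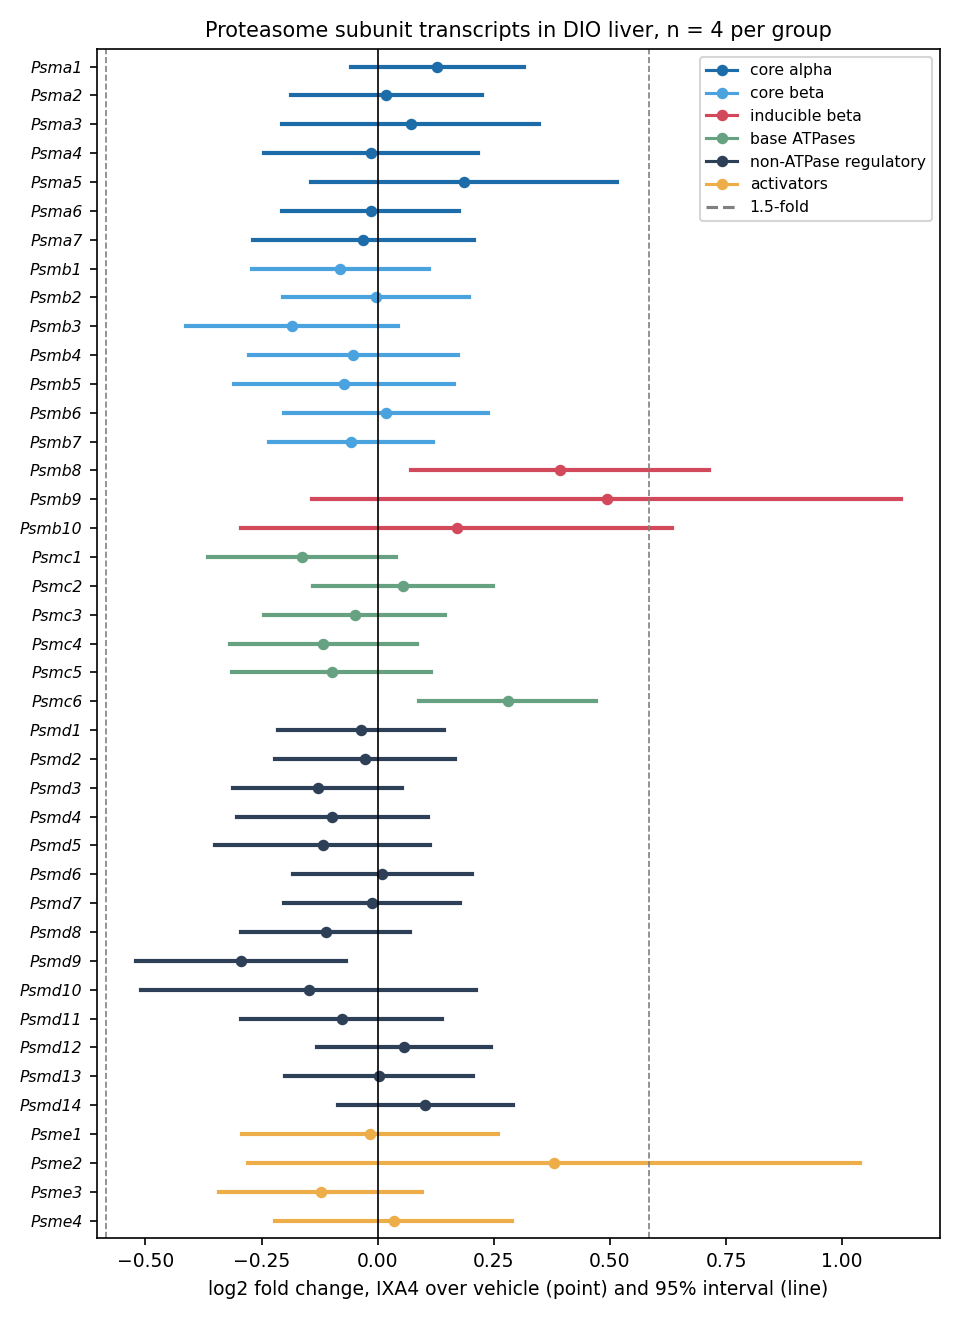
Log2 fold change of 41 proteasome subunit transcripts, IXA4 over vehicle (x axis), with a line for each gene's 95% interval from edgeR, coloured by subunit class; dashed lines mark 1.5-fold. Intervals of the other classes lie within the dashed lines apart from Psme2, whereas those of Psmb8, Psmb9 and Psmb10 run past them.

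The upstream sequences of genes whose values carry these results are shown because proteasome genes are known to share an antioxidant response element read by NRF1, and the inducible genes to carry interferon elements. RefSeq windows of GRCm38.p6, from 250 bases before each start to 50 after it, were found for 36 of the 43 genes, 39 windows in all. Psmb5 is the constitutive counterpart of Psmb8, and Psmb6 that of Psmb9. Psmc6 was the 1 subunit whose groups did not overlap, and Psmb10 is the inducible gene outside the MHC region. For these 4 genes the 250 bases before the start are printed 5′ to 3′ on the gene's strand, with any match to TGACNNNGC, an antioxidant response element core, in capitals for Psmb5, Psmb6 and Psmc6. For Psmb10 the capitals were reserved for the interferon-stimulated response element and the gamma-activated site TTCNNNGAA, and there was no match to either.
Psmb5, chr14:54617996-54618245, minus strand: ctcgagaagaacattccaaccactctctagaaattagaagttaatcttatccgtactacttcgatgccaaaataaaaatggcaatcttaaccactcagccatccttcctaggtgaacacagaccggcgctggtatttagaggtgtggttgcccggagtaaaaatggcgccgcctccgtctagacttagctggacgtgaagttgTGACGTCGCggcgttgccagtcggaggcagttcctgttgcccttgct
Psmb6, chr11:70525107-70525356, plus strand: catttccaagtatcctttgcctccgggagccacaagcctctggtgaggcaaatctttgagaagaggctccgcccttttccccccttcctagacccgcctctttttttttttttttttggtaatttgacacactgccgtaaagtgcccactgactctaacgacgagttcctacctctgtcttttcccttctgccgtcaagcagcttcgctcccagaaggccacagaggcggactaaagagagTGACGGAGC
Psmc6, chr14:45329574-45329823, plus strand: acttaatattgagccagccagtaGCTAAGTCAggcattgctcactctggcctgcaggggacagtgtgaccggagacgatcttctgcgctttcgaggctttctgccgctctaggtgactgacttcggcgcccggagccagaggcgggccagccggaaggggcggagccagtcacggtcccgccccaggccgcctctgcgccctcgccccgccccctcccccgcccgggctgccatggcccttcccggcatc
Psmb10, chr8:105938393-105938642, minus strand: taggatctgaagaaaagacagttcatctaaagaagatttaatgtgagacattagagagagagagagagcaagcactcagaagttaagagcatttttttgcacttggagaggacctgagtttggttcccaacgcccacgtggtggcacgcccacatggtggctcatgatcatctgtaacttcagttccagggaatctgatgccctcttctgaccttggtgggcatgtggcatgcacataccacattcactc
The match began at -47 from the start in Psmb5, at -9 in Psmb6 and at -227 in Psmc6, where it is the reverse complement of the motif as written. The windows of Psmb8 and Psmb9 lie wholly inside exons of GENCODE transcripts, so they are not printed in full. In Psmb8 a match to the gamma-activated site began at -97 and is given in capitals with its flanks.
Psmb8 site, chr17:34198088-34198116, plus strand: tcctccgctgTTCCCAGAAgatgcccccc
No match to that motif or to the interferon-stimulated response element was found in the Psmb9 window.

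Each motif was searched on both strands of all 32851 windows of the table. TGACNNNGC was present in 15.4% of the subunits' windows and 12.4% of all windows, in Psmb5, Psmb6, Psmc6, Psmd9, Psmd12 and Psme4. The interferon-stimulated response element was present in 10.3% of the subunits' windows and 3.44% of all, in Psmb3, Psmd4, Psmd9 and Psme1. TTCNNNGAA was present in 5.13% and 8.30%, in Psmb8 and Psmd2. The NF-Y box CCAAT was present in 35.9% and 37.4%, CCACG, a part of the ER stress response element, in 41.0% and 32.8%, and GAANNTTC, the heat shock element core, in 5.13% and 7.86%. These are matches of letters in short windows and were not tested.

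On the log2 scale, the inducible subunits were the class whose mean deviation from vehicle spread most among IXA4-treated livers, from -0.26 to 0.81, whereas each other class stayed between -0.23 and 0.18. Psmb8, the chymotrypsin-like subunit of the immunoproteasome (chromosome 17, 34334666 to 34338399 on NCBIM37), was at 36.5, 43.1, 25.7 and 29.2 CPM in IXA4 replicates 1 to 4 and at 27.4, 25.7, 27.2 and 22.1 CPM in vehicle replicates 1 to 4. IXA4 replicates 1, 2 and 4 lay above every vehicle library and IXA4 replicate 3 lay among them, so the groups overlapped. The log2 fold change was 0.39 (SE 0.15, 95% interval 0.07 to 0.71, edgeR adjusted p = 0.169), and the means were 33.6 ± 7.73 CPM with IXA4 and 25.6 ± 2.42 CPM with vehicle (SD, n = 4). Psmb9, the inducible counterpart of Psmb6 (chromosome 17, 34318933 to 34324709), was at 28.7, 34.9, 12.4 and 18.8 CPM with IXA4 and at 15.2, 18.5, 16.0 and 17.6 CPM with vehicle. IXA4 replicate 2 was the highest and IXA4 replicate 3 the lowest of all 8 libraries. The log2 fold change was 0.49 (SE 0.28, edgeR adjusted p = 0.386). Psmb10, the inducible counterpart of Psmb7 (chromosome 8, 108459628 to 108462292), was at 49.6, 57.5, 28.7 and 30.4 CPM with IXA4 and at 35.7, 35.2, 39.5 and 37.3 CPM with vehicle. Here IXA4 replicates 1 and 2 lay above every vehicle library and IXA4 replicates 3 and 4 lay below every one. The log2 fold change was 0.17 (SE 0.21, edgeR adjusted p = 0.713), and it was -0.02 without IXA4 replicate 2.

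The spread of the inducible subunits lay within the IXA4 group. The SD over libraries was 10.1 CPM with IXA4 and 1.53 CPM with vehicle for Psmb9, and 14.3 CPM and 1.96 CPM for Psmb10. This was not particular to them, since it was 20.6 CPM and 1.47 CPM for the activator Psme4. For the activator Psme1 it was 14.0 CPM with IXA4 and 3.27 CPM with vehicle. Psme1 and Psme4 were high in opposite IXA4 libraries, so the mean of their class does not show their spread. Tap1, which encodes a subunit of the peptide transporter, lies between Psmb9 and Psmb8 at 34324498 to 34334170, and its first exon overlaps the Psmb9 gene on the other strand. Whether the counting used strand is not given in the sources used here. Reads from that overlap can therefore not be assigned to a single gene. Tap1 was at 33.3, 35.6, 19.9 and 27.9 CPM with IXA4 and at 20.6, 18.4, 19.4 and 18.2 CPM with vehicle, so its highest libraries were also IXA4 replicates 1 and 2.

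The constitutive counterparts differed less between IXA4 libraries, though Psmb5 and Psmb6 were also higher in IXA4 replicates 1 and 2 than in 3 and 4. Psmb5 (chromosome 14, 55232644 to 55236851) was at 51.3, 53.3, 47.3 and 41.2 CPM with IXA4 and at 46.9, 45.6, 58.1 and 52.3 CPM with vehicle (log2 fold change -0.07, SE 0.11, edgeR adjusted p = 0.772). Psmb6 (chromosome 11, 70338869 to 70341360) was at 104, 99.1, 87.4 and 81.9 CPM with IXA4 and at 92.4, 85.2, 103 and 87.6 CPM with vehicle (log2 fold change 0.02, SE 0.10, edgeR adjusted p = 0.945). Psmb7 (chromosome 2, 38443556 to 38499607) was at 116, 113, 119 and 104 CPM with IXA4 and at 115, 116, 118 and 121 CPM with vehicle (log2 fold change -0.06, SE 0.08, edgeR adjusted p = 0.753). For each of the 3 the groups overlapped. The sign of the small Psmb5 value turned without vehicle replicate 3 (0.01), and that of Psmb6 turned under total-count scaling and without IXA4 replicate 1 or 2 or vehicle replicate 2 or 4, with values from -0.04 to 0.09 over the libraries left out.

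**Figure D2:**
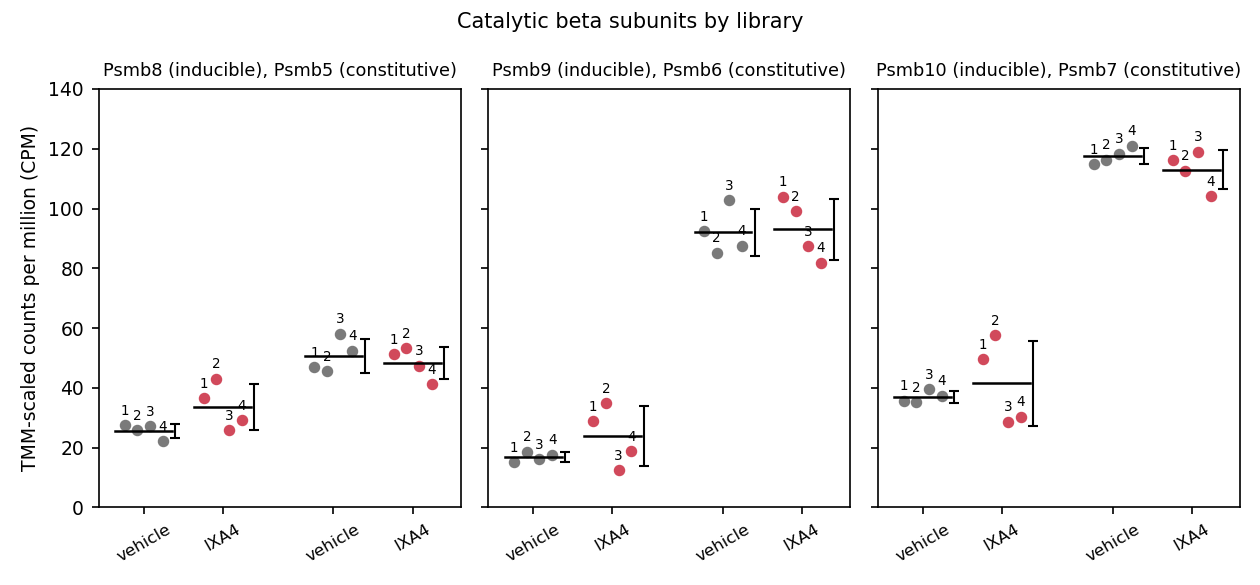
Level in CPM (y axis, linear from 0) of each inducible catalytic subunit and its constitutive counterpart in vehicle (grey) and IXA4 (red) libraries; points are single libraries with their replicate number, horizontal bars are means and the brackets beside them 1 SD. IXA4 replicates 1 and 2 are the highest libraries for Psmb8, Psmb9 and Psmb10, and the 2 groups overlap for every gene shown.

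The ratio of an inducible to a constitutive subunit within a library does not depend on the scaling of libraries. The count ratio of Psmb8 to Psmb5 was 0.711, 0.809, 0.543 and 0.709 with IXA4 and 0.584, 0.564, 0.467 and 0.423 with vehicle. Only IXA4 replicate 3 lay among the vehicle values, and the log2 ratio was 0.44 higher with IXA4 (two-sided exact permutation test, n = 4 and 4, p = 0.0857, adjusted over 3 ratios 0.257). For Psmb9 to Psmb6 the ratios were 0.276, 0.352, 0.142 and 0.230 with IXA4 and 0.164, 0.218, 0.156 and 0.201 with vehicle, a log2 difference of 0.37 (exact p = 0.286, adjusted 0.429). For Psmb10 to Psmb7 they were 0.427, 0.511, 0.241 and 0.291 with IXA4 and 0.311, 0.302, 0.334 and 0.308 with vehicle, a log2 difference of 0.17 (exact p = 0.571, adjusted 0.571). With 4 mice against 4 the smallest p is 0.0286. After adjustment over 3 ratios, a single ratio at that p could not pass, and at least 2 had to reach it. None of the 3 differences passed the test, which could therefore not decide whether any single ratio differed. For 2 of them the result depended on IXA4 replicate 3. Without it the log2 differences of Psmb8 to Psmb5 and of Psmb9 to Psmb6 were 0.55 and 0.62, each at an adjusted exact p = 0.0429. Each had then reached the smallest p possible, because the library removed was the only IXA4 library not above every vehicle value. No conclusion is drawn from that removal. With each library left out in turn, the adjusted p of Psmb8 to Psmb5 ran from 0.0429 to 0.514. Without IXA4 replicate 2 the difference for Psmb10 to Psmb7 was -0.01.

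Several genes of antigen-presenting cells, though not all of those tested, were high in the same IXA4 libraries. Cd74, the invariant chain of MHC class II, was at 131, 195, 45.2 and 79.1 CPM with IXA4 and at 53.8, 68.0, 38.8 and 68.8 CPM with vehicle. Its log2 fold change was 0.97 (SE 0.46, edgeR adjusted p = 0.310). H2-Ab1, a chain of the class II molecule, was at 30.9, 57.7, 13.7 and 23.1 CPM with IXA4 and at 15.6, 24.3, 12.0 and 19.2 CPM with vehicle. For both genes IXA4 replicate 2 was the highest library and IXA4 replicate 1 the next, as for the inducible subunits, and IXA4 replicate 3 lay among the vehicle values. H2-Aa, H2-Eb1 and H2-DMa had the same highest 2 libraries among those treated with IXA4. H2-DMb1, which helps to load class II, was at 2.60, 5.88, 2.29 and 2.74 CPM with IXA4. Only replicate 2 was high, and replicates 1, 3 and 4 lay below every vehicle library (2.87 to 3.87 CPM). Cd86, a costimulatory ligand, went the other way, at 1.02, 0.99, 1.60 and 1.86 CPM with IXA4 and 0.67 to 1.42 CPM with vehicle. Of the 10 genes in this list, 7 were tested, 0 passed and 7 were positive, with a median log2 fold change of 0.64. Over all genes 4.63% passed and 5950 of 12427 were positive. The list's summed level ran from 90.5 to 377 CPM with IXA4 and from 84.4 to 152 CPM with vehicle. Macrophage markers were mixed. The sum of 15 of them was 327, 448, 307 and 540 CPM in IXA4 replicates 1 to 4 and 256 to 538 CPM with vehicle, with 0 of 15 passing. Marco and Vsig4, markers of resident Kupffer cells, were highest among IXA4 libraries in replicate 4, while Lyz2, Gpnmb and Trem2 were highest in replicate 2 and Cd9 in replicates 2 and 1. Among the leukocyte markers 10 of 21 were tested and 1 was higher, Itgam, an integrin chain of myeloid cells, beside 3.64% of all genes. In bulk liver, more cells of a type and more RNA per cell cannot be told apart, and the part of such cells in the inducible subunits' levels was not tested.

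After centring each gene on its group mean, the 3 inducible subunits had a median pairwise Pearson r of 0.889 over the 8 libraries (range 0.840 to 0.915, 3 pairs). Their r with the 7 tested genes of the MHC class II list had a median of 0.758 (range -0.777 to 0.966, 21 pairs), with a negative median only for Cd86. That with the 15 macrophage markers had a median of 0.0881 (range -0.538 to 0.758, 45 pairs), and was highest for Trem2, at a median of 0.739. The 14 tested constitutive core subunits had a median r of 0.601 with each other (91 pairs) and 0.481 with the inducible subunits (42 pairs), compared with -0.04 with all other genes tested. The points share libraries, scaling and depth, so these r values are descriptions and carry no test. For all 3 inducible subunits the SD was larger with IXA4 than with vehicle, so the IXA4 libraries weigh most in them. Among vehicle libraries, replicate 1 was the highest for Psmb8 (27.4 CPM) and the lowest for Psmb9 (15.2 CPM). The r was not taken within each group, and a shared variation among vehicle livers is not claimed.

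**Figure D3:**
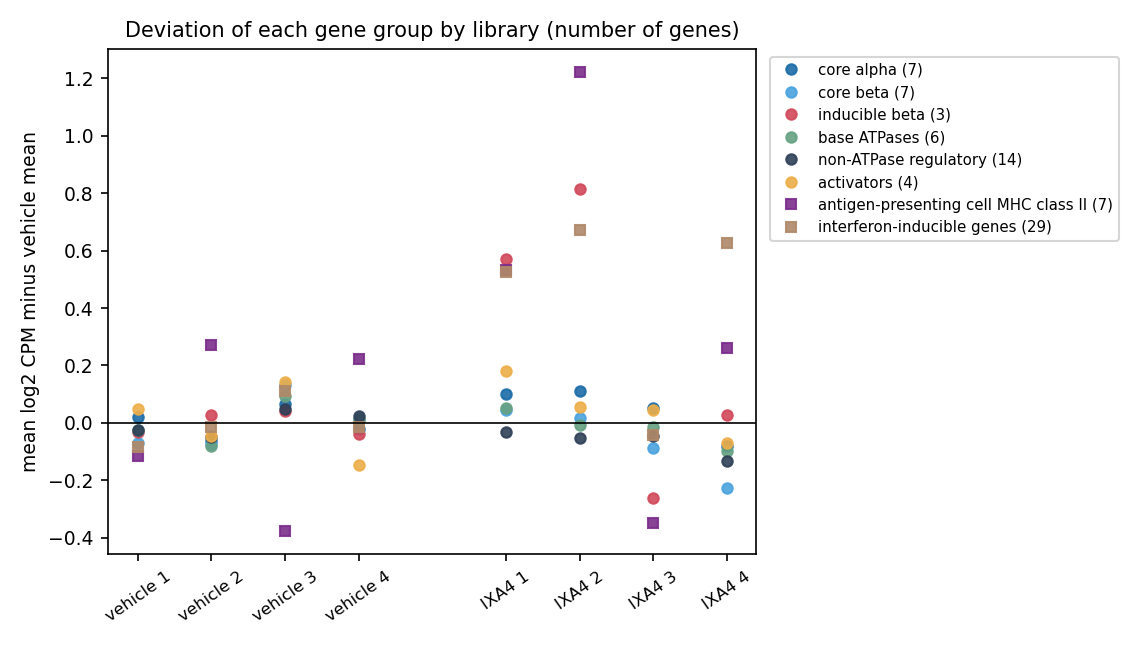
Mean over the tested genes of each class of log2 CPM minus the vehicle mean (y axis) in each library (x axis); circles are proteasome classes, squares are MHC class II and interferon-inducible lists, and the number of genes is given in the key. The inducible subunits stand at 0.57 and 0.81 in IXA4 replicates 1 and 2 and at -0.26 and 0.03 in IXA4 replicates 3 and 4, whereas the other proteasome classes lie between -0.23 and 0.18 in every library.

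Alpha subunits form the outer rings of the core. Of the 7 tested, 4 had positive and 3 negative values, with log2 fold changes from -0.03 to 0.19. Psma5 had the highest, at 5.25, 5.01, 6.13 and 4.54 CPM with IXA4 and at 4.38, 4.94, 4.66 and 4.42 CPM with vehicle (log2 fold change 0.19, SE 0.15, edgeR adjusted p = 0.555). Psma7 had the lowest, at 135, 145, 123 and 103 CPM with IXA4 and at 133, 120, 138 and 125 CPM with vehicle (log2 fold change -0.03, SE 0.11, edgeR adjusted p = 0.909), and its sign turned without IXA4 replicate 4 (0.06) or vehicle replicate 3 (0.02). IXA4 replicate 4 was the lowest library for Psma7, and the groups overlapped for both genes. Psma1, Psma2, Psma3, Psma4 and Psma6 lay between. Psma8, an alpha subunit of testis, had 60 counts in all 8 libraries together, at most 1.36 CPM, and was not tested.

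Beta subunits form the inner rings. Of the 7 constitutive ones tested, 6 had negative values, and the range was -0.18 to 0.02. Psmb3, which has no active site, had the lowest value, at 22.2, 23.1, 21.8 and 18.6 CPM with IXA4 and at 22.2, 23.9, 27.2 and 23.9 CPM with vehicle (log2 fold change -0.18, SE 0.11, edgeR adjusted p = 0.374). Psmb1, Psmb2 and Psmb4, also without active sites, were at -0.08, 0.00 and -0.05. Psmb4 was at 136 to 170 CPM with IXA4 and 145 to 175 CPM with vehicle. Psmb11, the beta subunit of the thymus, had 0 counts in every library, which allows up to 0.177 CPM in the shallowest library (3 counts, counting error only).

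In the ATPase ring of the regulatory particle, Psmc6 was the 1 subunit of the 41 whose groups did not overlap. It lies on chromosome 14 at 45949504 to 45969367 and was at 84.5, 86.7, 96.6 and 102 CPM with IXA4 and at 75.8, 77.3, 77.7 and 73.4 CPM with vehicle. Every IXA4 library lay above every vehicle library, by a log2 fold change of 0.28 (SE 0.09, 95% interval 0.09 to 0.47), or 1.21-fold, at an edgeR adjusted p = 0.0994. The groups did not overlap for 12.7% of all genes tested, which divided into 7.44% apart in this direction and 5.24% in the other. The high IXA4 libraries for Psmc6 were replicates 3 and 4, not those of the inducible subunits. Its adjusted p stayed between 0.0698 and 0.227 with each library left out. The other ATPases did not share this value. Psmc1 had the lowest, at 74.6, 71.8, 70.4 and 61.2 CPM with IXA4 and at 72.6, 74.0, 81.9 and 82.8 CPM with vehicle (log2 fold change -0.16, SE 0.09, edgeR adjusted p = 0.372). Psmc2, Psmc3, Psmc4 and Psmc5 were at 0.05, -0.05, -0.12 and -0.10.

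The non-ATPase genes of the regulatory particle include scaffolds, ubiquitin receptors, the deubiquitinase and assembly chaperones, and 10 of the 14 had negative values. Psmd9, an assembly chaperone of the ATPase ring (chromosome 5, 123678199 to 123700140), had the lowest, at 26.1, 30.8, 25.2 and 23.7 CPM with IXA4 and at 30.4, 30.3, 34.6 and 34.5 CPM with vehicle. IXA4 replicate 2 lay just above the 2 lower vehicle libraries, so the groups overlapped. The log2 fold change was -0.29 (SE 0.10, 95% interval -0.52 to -0.07, edgeR adjusted p = 0.143), and the adjusted p was 0.0561 without IXA4 replicate 2 and at most 0.292 with any other library left out. Psmd5 and Psmd10, which are chaperones of the same ring and not part of the finished particle, were at -0.12 and -0.15. Psmd14, the deubiquitinase that removes ubiquitin chains from substrates, had the highest value, at 32.0, 33.2, 36.5 and 34.9 CPM with IXA4 and at 31.6, 31.0, 31.0 and 33.6 CPM with vehicle (log2 fold change 0.10, SE 0.09, edgeR adjusted p = 0.569). The scaffold genes Psmd1 and Psmd2 were at -0.04 and -0.03, and the ubiquitin receptor Psmd4 at -0.10. The lid genes Psmd3, Psmd6, Psmd7, Psmd8, Psmd11, Psmd12 and Psmd13 ranged from -0.13 to 0.06. All 14 had a 95% interval within 1.5-fold of no change.

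Activators bind the ends of the core in place of the regulatory particle. Psme1, the alpha subunit of the interferon-inducible activator PA28 (chromosome 14, 56196960 to 56200366), was at 81.7, 82.0, 60.5 and 55.3 CPM with IXA4 and at 74.4, 67.3, 72.3 and 68.6 CPM with vehicle. IXA4 replicates 1 and 2 lay above every vehicle library and IXA4 replicates 3 and 4 below every one, as for Psmb10. The log2 fold change was -0.02 (SE 0.13, edgeR adjusted p = 0.959), and its sign turned without IXA4 replicate 3 (0.04), IXA4 replicate 4 (0.08), vehicle replicate 1 (0.01) or vehicle replicate 3 (0.01). Psme2, its beta subunit (chromosome 14, 56206278 to 56209950), was counted at only 2.26, 2.21, 1.66 and 1.15 CPM with IXA4 and at 1.46, 1.17, 2.06 and 0.927 CPM with vehicle (log2 fold change 0.38, SE 0.30, edgeR adjusted p = 0.546). The groups overlapped, and single libraries held 17 to 40 counts. Psme3, a nuclear activator, was at 30.8, 25.1, 30.1 and 33.3 CPM with IXA4 and at 33.1, 33.8, 32.0 and 31.0 CPM with vehicle (log2 fold change -0.12, SE 0.10, edgeR adjusted p = 0.555). Psme4, the activator PA200, was at 103, 90.5, 131 and 132 CPM with IXA4 and at 110, 113, 110 and 112 CPM with vehicle. Its IXA4 libraries stood on both sides of the vehicle range, with replicates 1 and 2 low and 3 and 4 high, the reverse of Psme1 (log2 fold change 0.03, SE 0.12, edgeR adjusted p = 0.906).

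Levels of the subunits differed far more between genes than between groups, and some low values stood beside repeated sequence. Many subunits have processed pseudogenes, which are copies of the mRNA in the genome. For each gene's longest transcript, every 50-base window, the length of a read, was looked up in NCBIM37. In 24 of 43 genes no window occurred elsewhere. In 7 genes at least 25% did, namely 63.5% in Psmb3, 60.3% in Psmb5, 59.3% in Psme2, 56.6% in Psma5, 45.3% in Psma4, 30.5% in Psma3 and 26.1% in Psmd2. Per kb of annotated exon, the vehicle mean was 1.97 CPM for Psma3, 3.48 CPM for Psma5 and 10.6 CPM for Psmb3, beside a median of 62.2 CPM per kb over the constitutive core subunits tested with no repeated window. Psmb5, with a similar share of repeated windows to Psmb3, was at 55.0 CPM per kb. Low values also occurred with no repeated window, at 4.60 CPM per kb for Psmb9, 5.35 for Psmd10 and 8.26 for Psmd5. Annotated exon here is the union over a gene's transcripts, which lowers the value where it exceeds the longest one. The union and the longest transcript were 3894 and 2846 bases for Psma3, 2300 and 766 for Psmb3, and 3659 and 1351 for Psmb9. For Psmb5 they were 922 and 871. The low values of Psmb3 and Psmb9 per kb, and the gap between Psmb3 and Psmb5, therefore depend in part on the length used. Psme1 and Psme2, which assemble into 1 ring, were at 32.0 and 0.80 CPM per kb. Since the counting of reads that match several places is not stated in those sources, the levels of these 7 genes are uncertain. The inducible subunits and Psmc6 had at most 0.05% of windows repeated.

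**Figure D4:**
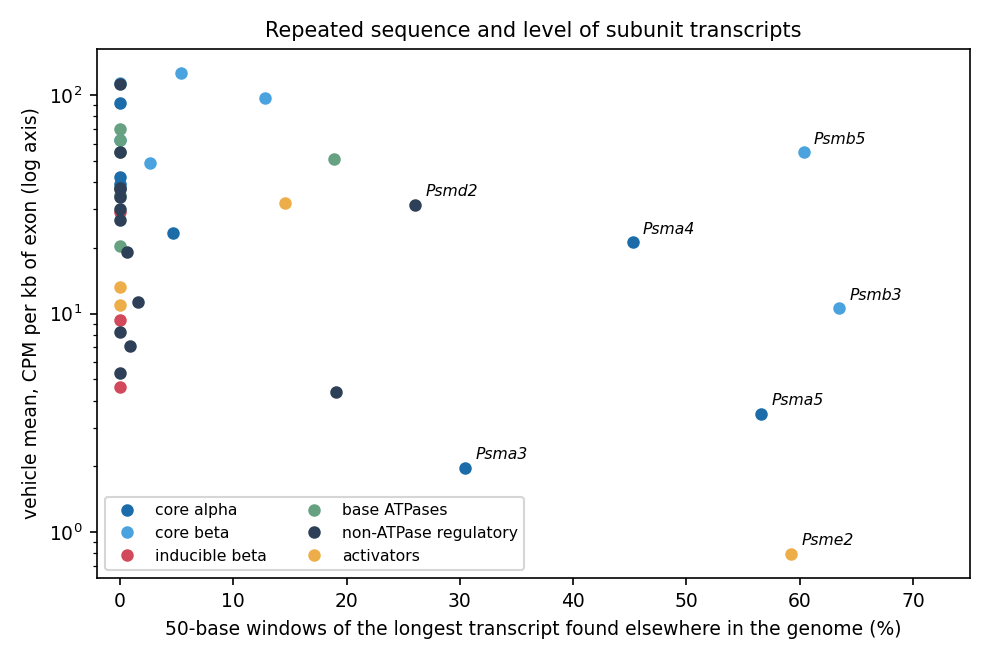
Vehicle mean level in CPM per kb of annotated exon (y axis, log scale) against the percentage of 50-base windows of the longest transcript that occur elsewhere in NCBIM37 (x axis) for 41 subunits, coloured by class; genes at 25% or more are named. Psma3, Psma5 and Psme2 are among the lowest points, while Psmb5 stands at 55.0 CPM per kb with 60.3% of windows repeated.

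Genes that assemble, inhibit or accompany the proteasome gave 1 call among 16 tested, where 4.63% of all genes tested were called. Txnl1, a thioredoxin-like protein bound to the regulatory particle, was at 118, 125, 133 and 120 CPM with IXA4 and at 94.7, 95.8, 104 and 93.0 CPM with vehicle. All IXA4 libraries lay above all vehicle libraries (log2 fold change 0.35, SE 0.08, edgeR adjusted p = 0.0305). With a library left out the adjusted p ran from 0.0285 to 0.106 and was above the threshold without IXA4 replicate 1 or 3 or vehicle replicate 1, 2 or 4. The core chaperones Psmg1, Psmg2, Psmg3 and Psmg4 were at -0.19, 0.06, -0.04 and -0.28 and Pomp, which matures the core, at 0.01, with none called. The list's median was -0.0069, beside -0.0148 over all genes tested.

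In the NRF1 axis 1 of 11 genes was called, where 4.63% of all genes tested were called. Of the 11 values 10 were positive, with a median of 0.16, beside -0.01 over all genes tested. Nfe2l1 itself was at 67.5, 65.8, 84.4 and 82.2 CPM with IXA4 and at 81.2, 70.8, 74.9 and 66.5 CPM with vehicle, with overlapping groups (log2 fold change 0.03, SE 0.11, edgeR adjusted p = 0.903). Ddi2, the protease that cuts NRF1 into its active form, was at 0.19 and Vcp, which extracts it from the ER membrane, at 0.03, neither called. Sel1l, also of this list and not called, was at 0.67 (SE 0.28, edgeR adjusted p = 0.244). Syvn1, the ER-membrane ubiquitin ligase HRD1 and a known XBP1s target, was at 134, 158, 204 and 503 CPM with IXA4 and at 51.0, 60.1, 60.1 and 52.0 CPM with vehicle. Every IXA4 library lay above every vehicle library, and IXA4 replicate 4 was the highest (log2 fold change 2.16, SE 0.44, edgeR adjusted p = 0.0424). Its adjusted p ran from 6.60e-05 to 0.131 with a library left out, and was above the threshold without IXA4 replicate 3 or any single vehicle library. The library highest for Syvn1, IXA4 replicate 4, had the lowest summed level over all subunits, 2939 CPM. It was also the lowest library for the constitutive beta (562 CPM), alpha (410 CPM), ATPase (590 CPM) and other regulatory particle (1078 CPM) classes. It was not the lowest for the activators or the inducible subunits, and a relation to Syvn1 was not tested.

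Of 17 genes that process or present peptides on MHC class I, 5 rose and 0 fell, beside 3.64% and 0.99% of all genes tested. Tpp2, a peptidase that trims proteasome products, was at 45.7, 41.5, 56.3 and 57.7 CPM with IXA4 and at 31.0, 34.3, 29.6 and 32.9 CPM with vehicle (log2 fold change 0.65, edgeR adjusted p = 0.0064). Tapbpl, a peptide editor of class I, had a log2 fold change of 0.65 (edgeR adjusted p = 0.00823). Pdia3, a disulfide isomerase of the class I loading complex and of the ER at large, was at 1.08 (edgeR adjusted p = 0.0248), Tap1 at 0.61 (edgeR adjusted p = 0.0424) and Nlrc5, the class I transactivator, at 0.61 (edgeR adjusted p = 0.0425). The calls of Tpp2 and Tapbpl held with each library left out. That of Pdia3 was lost without vehicle replicate 1, 2 or 4 (highest adjusted p 0.0849), that of Tap1 without any vehicle library or IXA4 replicate 1, 2 or 4 (0.122), and that of Nlrc5 without vehicle replicate 1, 2 or 4 or IXA4 replicate 2, 3 or 4 (0.114). The list's median was 0.32, with 16 of 17 values positive. It was chosen with earlier results of these data known, so its share called is not a test of the list. Over all genes tested the median was -0.01, with 5950 of 12427 values positive.

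Of 29 interferon-inducible genes tested, 5 rose and 0 fell, beside 3.64% and 0.99% of all genes tested. They were Gbp7 (log2 fold change 1.02, edgeR adjusted p = 0.0108), Ifi47 (0.85, adjusted p = 0.0149), Irgm1 (0.54, adjusted p = 0.0214), Iigp1 (0.64, adjusted p = 0.0240) and Irf1 (1.03, adjusted p = 0.0354), which encode GTPases of cell defence and, in Irf1, a transcription factor known to induce Psmb8 and Psmb9. Irf1 was at 26.3, 14.9, 19.6 and 33.8 CPM with IXA4 and at 11.5, 11.2, 14.4 and 9.38 CPM with vehicle, so its highest libraries were IXA4 replicates 4 and 1. Gbp7 kept its call with each library left out, whereas Ifi47 lost it without vehicle replicate 2 or 4 (highest adjusted p 0.0591). Irgm1 lost it without vehicle replicate 1 or 4 or IXA4 replicate 1 (0.0809), Iigp1 without vehicle replicate 2 or 4 or IXA4 replicate 3 (0.0753), and Irf1 without vehicle replicate 1, 2 or 4 or IXA4 replicate 1 or 3 (0.111). The other 24 genes were not called. Of the 29 values 25 were positive and 4 negative, with a median of 0.42. The negative ones were Usp18 (-0.40), Ifit2 (-0.30), Ifit3 (-0.20) and Irf7 (-0.04), while Rsad2 and Ifit1 were at 0.02 and 0.09. This list was chosen with earlier results of these data known, so its share called is not a test of the list. The list's mean deviation was 0.53, 0.67, -0.04 and 0.62 in IXA4 replicates 1 to 4. IXA4 replicate 4 was thus high for the list but stood at 0.03 for the inducible subunits.

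Markers of other liver cells are given for the tissue as a whole. Of the hepatocyte markers 0 of 12 passed, and their sum was 111220 to 141924 CPM with IXA4 and 123509 to 154846 CPM with vehicle. Among fibroblast and stellate markers 5 of 11 rose, including Col1a2 and Col3a1, and 2 fell. Of the endothelial markers 4 of 10 fell, and of the cholangiocyte markers 2 of 5 rose. Over all genes tested 3.64% rose and 0.99% fell. The part of these cells in the subunit values was not tested.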

How the data were processed

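The data are RNA-seq libraries of liver from the 8 DIO mice, 4 per group, with 50 bp reads from 1 end of each fragment. Per the study's methods, the authors used DNAstar Lasergene SeqManPro for alignment to the mouse assembly MGSCv37 and ArrayStar with QSeq for quantification, and they deposited whole-number counts for each gene symbol. Sources used here do not state how reads with several matches, strand or the annotation release were treated. A further deposited table holds only the authors' own comparison and was not used.

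The count columns are headed as vehicle or by a number that the labels do not explain, and the latter 4 were taken as IXA4, the only other group. No heading gives the animal, so replicate numbers are those of the columns. Genes were kept by filterByExpr (minimum count 10, minimum total 15), scaled by TMM and tested with edgeR 4.0.16 in R 4.3.3 (quasi-likelihood F test, robust, no covariate), with Benjamini-Hochberg adjustment over 12427 genes at 0.05. Levels are TMM-scaled CPM, and the SE is that implied by the F statistic. DESeq2 1.42.0 was an alternative, beside other scalings and filters and each library left out. The log2 ratios of inducible to constitutive counts (0.5 added to each) were compared by exact permutation over mice. The test was checked on simulated counts. Library totals were of about the same size in all 8 libraries. The intervals rest on the spread between libraries that the F test estimates for each gene, and limits on counts of 0 cover counting error only. The members and gene lists were chosen with earlier results of these data known. A list's share called, set beside that of all genes, is therefore a description and not a test. Named in every library were the catalytic subunits, Psme1, Psme2 and the highest and lowest value of each class; of each other list, up to 4 called genes of smallest p. Genes named beyond that rule, Nlrc5 and Irf1 among them, were chosen after their values were seen. Positions, exon lengths and transcripts are from GENCODE vM1 on NCBIM37, the same assembly, matched by symbol. The list of ubiquitin genes and shuttle factors is not reported here.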

Additional observations from a re-analysis of the deposited data

Results flagged for a closer look

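In 88 groups of 4 values (41 subunits and 3 ratios in each treatment group), 2 held a library far from the other 3, where chance gives about 1 in 20, or 4.4 groups. Psma3, an alpha subunit of the core, stood at 8.61 CPM in vehicle replicate 1, with the next highest vehicle library at 7.47 CPM. Psmd4, a ubiquitin receptor, stood at 122 CPM in IXA4 replicate 4, with the next lowest IXA4 library at 149 CPM. Psma3 is also among the genes with repeated sequence, at 30.5% of its 50-base windows.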

How the results depend on the processing

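No subunit was called in any of the alternatives, whose lowest adjusted p for a subunit was 0.0561, without IXA4 replicate 2. Of 377 values of 29 genes examined, 321 kept their direction and side of the threshold, 43 were no longer called and 13 changed sign. With total counts in place of TMM, Psmb6 was at -0.012. Beside losses with a library left out, given with each gene, edgeR no longer called Syvn1, Pdia3 and Irf1 with no filter on low counts (adjusted p 0.0773, 0.0677 and 0.0759) or Tap1 with total counts (0.0756). With a library left out, the log2 fold change of Psmb6 ran from -0.039 to 0.086, Psma7 from -0.096 to 0.057, Psmb5 from -0.121 to 0.011, Psmb10 from -0.021 to 0.309 and Psme1 from -0.099 to 0.080, and the log2 ratio differences from 0.356 to 0.554 for Psmb8/Psmb5, 0.185 to 0.622 for Psmb9/Psmb6 and -0.014 to 0.347 for Psmb10/Psmb7. Over all genes, the number higher ran from 261 to 613 and the number lower from 43 to 162 with a library left out, and DESeq2 called 240 of those tested lower. The cause of these changes was not tested. Total-count scaling moved the median of all genes from -0.01 to -0.05. No paired analysis was possible because the count columns carry no animal numbers and the labels of the groups share only 1 replicate number. The depth limits Psme2, Psma5 and Psma8, and the unknown handling of multi-mapping reads limits levels of the 7 genes with repeated sequence.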
